A study of Mus musculus with 3 samples.

Results

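Secreted growth factors known to act on adult neurogenesis were followed across single myeloid cells of the mouse hippocampus. The 7 genes were Igf1, Pdgfa, Pdgfb, Vegfa, Spp1, Bdnf and Bmp2, taken by symbol from the 31053 genes of the count tables. Counts are UMIs, unique molecular identifiers that mark single captured RNA molecules. A cell was kept if it held 1000 UMIs or more, 500 genes or more and no more than 10% of its UMIs from mitochondrial genes, which left 19791 cells from 3 droplet runs. The question was which population of cells holds the RNA of each factor, in what share of cells, together with which other factor, and how far the runs differ.

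All runs belong to a single group, with bilateral hippocampi as the tissue and tdTomato+ as the labelled cell type. The genotype was Cx3cr1CreERT2/+, Rosa26tdTomato/+ and NestinTK-eGFP/+. Tamoxifen at 100 mg/kg was given on 4 days in a row. The series comprised 12 animals, 6 male and 6 female, which the labels do not assign to runs. A p-value over runs therefore says nothing beyond these 3 samples, whose spread may be technical. In every comparison but that by sex-linked transcripts, the p-values rest on a spread shared by all genes. They do not measure the spread of the single gene between runs. The series holds no second genotype or treatment to compare, and populations of cells are set against each other inside each run. The reporter marks cells in which the Cx3cr1 promoter was active, which takes in microglia and border-associated macrophages alike.

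Growth factors released in a neurogenic niche act on neural stem cells and their progeny through receptors on those cells. Igf1 encodes insulin-like growth factor I, Pdgfa and Pdgfb the chains of platelet-derived growth factor, and Vegfa a vascular growth factor, all ligands of receptor tyrosine kinases. Spp1 encodes osteopontin, a secreted ligand of integrins and Cd44, Bdnf a neurotrophin and Bmp2 a bone morphogenetic protein. Microglia are the resident macrophages of the brain tissue itself, whereas border-associated macrophages sit in the meninges, the perivascular spaces and the choroid plexus.

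The runs kept 6993, 6720 and 6078 cells, with a median of 4425, 3438 and 3696 UMIs per cell. Cells were placed in populations by the number of markers of a set that had a UMI, with at least 3 required, or 4 for the immediate early set. Homeostatic microglia, with at least 3 of 9 homeostatic markers such as Tmem119 and P2ry12 and no other gate passed, made up 6548, 6441 and 4714 cells and served as the reference. Border-associated macrophages, gated on Pf4, Mrc1, Lyve1, Cd163, F13a1, Cbr2 and Ms4a7, numbered 70, 35 and 54. The chemokine state (Ccl2, Ccl3, Ccl4, Ccl7, Tnf, Il1a, Il1b) numbered 20, 29 and 28 cells. Cells that passed only the lipid-associated gate (6 markers used, among them Lpl, Lgals3 and Fabp5) or only the MHC class II gate were under 10 in run 3 and could not be tested. Both gates were therefore also read with other states allowed, a choice made after the cell numbers were seen. This gave 36, 28 and 23 lipid-associated and 37, 26 and 39 MHC class II cells, of which 10 belong to both. Levels are given in CPM, the UMIs of a gene per 1000000 UMIs of the population. Over all cells kept, 99.6%, 99.4% and 99.6% held UMIs of at least 3 of the 9 homeostatic markers. Cells placed in other types, such as the 106 of the astrocyte gate, can reach this count as well. It therefore does not show that each cell is myeloid. Runs 1 and 2 shared 7 cell barcodes, runs 1 and 3 shared 10 and runs 2 and 3 shared 9. Doublets were not removed. Xist and Y-linked transcripts, normally found apart in female and male cells, met in 3.39%, 1.68% and 2.85% of the cells of runs 1, 2 and 3.

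Detection differed widely among the factors. A UMI of Pdgfb was found in 50.4%, 48.2% and 51.3% of the cells of runs 1, 2 and 3, a mean of 50.0% ± 1.57 (SD, n = 3). Pdgfa was found in 16.3%, 15.3% and 15.0%, with a mean of 15.5% ± 0.666. Igf1 was found in 1.52%, 0.699% and 1.20%, with a mean of 1.14% ± 0.412, and was lowest in run 2. Spp1 was found in 0.772%, 0.610% and 0.872% of the cells, with a mean of 0.751% ± 0.132. The remaining factors were rarer still. Vegfa was found in 23, 7 and 8 cells, a mean of 0.188% ± 0.123, and Bmp2 in 9, 2 and 8 cells, a mean of 0.0967% ± 0.0580. Bdnf was found in 4 cells of run 1, in none of the 6720 cells of run 2, which allows a share of up to 0.0446% of cells with a UMI and sets no limit on cells that express it, and in 1 cell of run 3. Capture also differs from transcript to transcript, so the shares order the factors by detection and not by level.

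The shares depended on depth. When every cell was thinned at random to 2000 UMIs, which left out 91, 386 and 169 shallower cells, Pdgfb was found in 27.6%, 32.0% and 32.0% of cells and Pdgfa in 7.71%, 8.98% and 8.12%. At that depth Igf1 was found in 0.594%, 0.395% and 0.728% and Spp1 in 0.435%, 0.395% and 0.457%. Run 1, the deepest run, had the highest unthinned share of Pdgfa and the lowest thinned one. Droplets also take up free RNA, and whether any population here lacks all of these factors is not known. The 11 cells with T or NK markers held 2 UMIs of Pdgfa, 2 of Pdgfb and none of the other 5 factors. Their median depth was 7375, 2233 and 3476 UMIs, and 11 cells are too few to set a background share. The plot of detection shares shows both depths for every run with exact 95% binomial intervals, which cover counting error only.

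**Figure D1:**
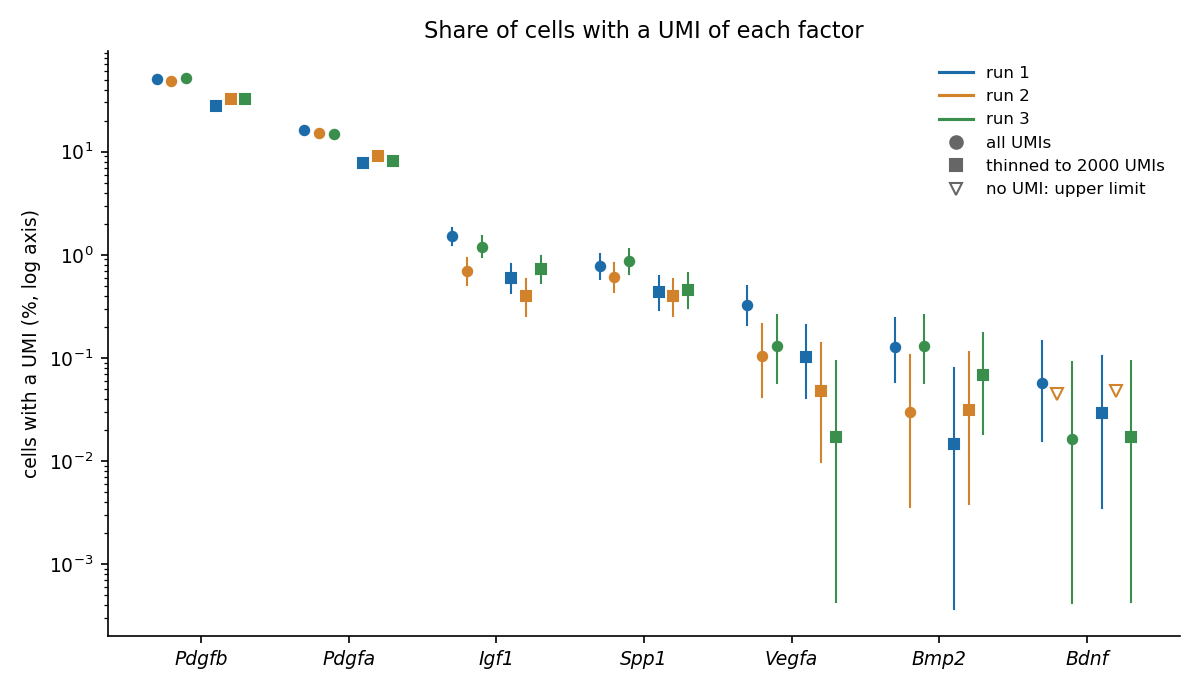
Share of cells with at least 1 UMI of each factor (%, log axis), by run, with all UMIs (circles) and after thinning each cell to 2000 UMIs (squares). Bars are exact 95% binomial intervals within a run, and open triangles give the upper limit where no cell had a UMI. Pdgfb was near 50% of cells in every run, Pdgfa near 15% and each of the other 5 factors at or under 1.52%.

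Where the UMIs lay differed from factor to factor. Homeostatic microglia were 89.5% of the cells and held 86.9% of the Pdgfb UMIs (13218 of 15215) and 83.6% of the Pdgfa UMIs (3220 of 3854), close to their share of the cells. They held 29.9% of the Igf1 UMIs (96 of 321), 28.9% of the Spp1 UMIs (183 of 633) and 1 of the 23 Bmp2 UMIs. Border-associated macrophages, 0.803% of the cells, held 48.6% of the Igf1 UMIs and 87.0% of the Bmp2 UMIs over all runs. By run they held 44.6%, 32.1% and 62.2% of the Igf1 UMIs, against 24.2%, 56.6% and 25.2% in homeostatic microglia. The order of these populations was thus reversed in run 2. Cells passing the lipid-associated or the MHC class II gate outside the class gates were 0.904% of the cells and held 53.9% of the Spp1 UMIs (341 of 633). In run 2 cells of both gates held 12, the lipid-associated gate only 9 and the MHC class II gate only 6 of 80 Spp1 UMIs. Homeostatic microglia held 33.7%, 53.8% and 14.5% of the Spp1 UMIs of runs 1, 2 and 3.

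**Figure D2:**
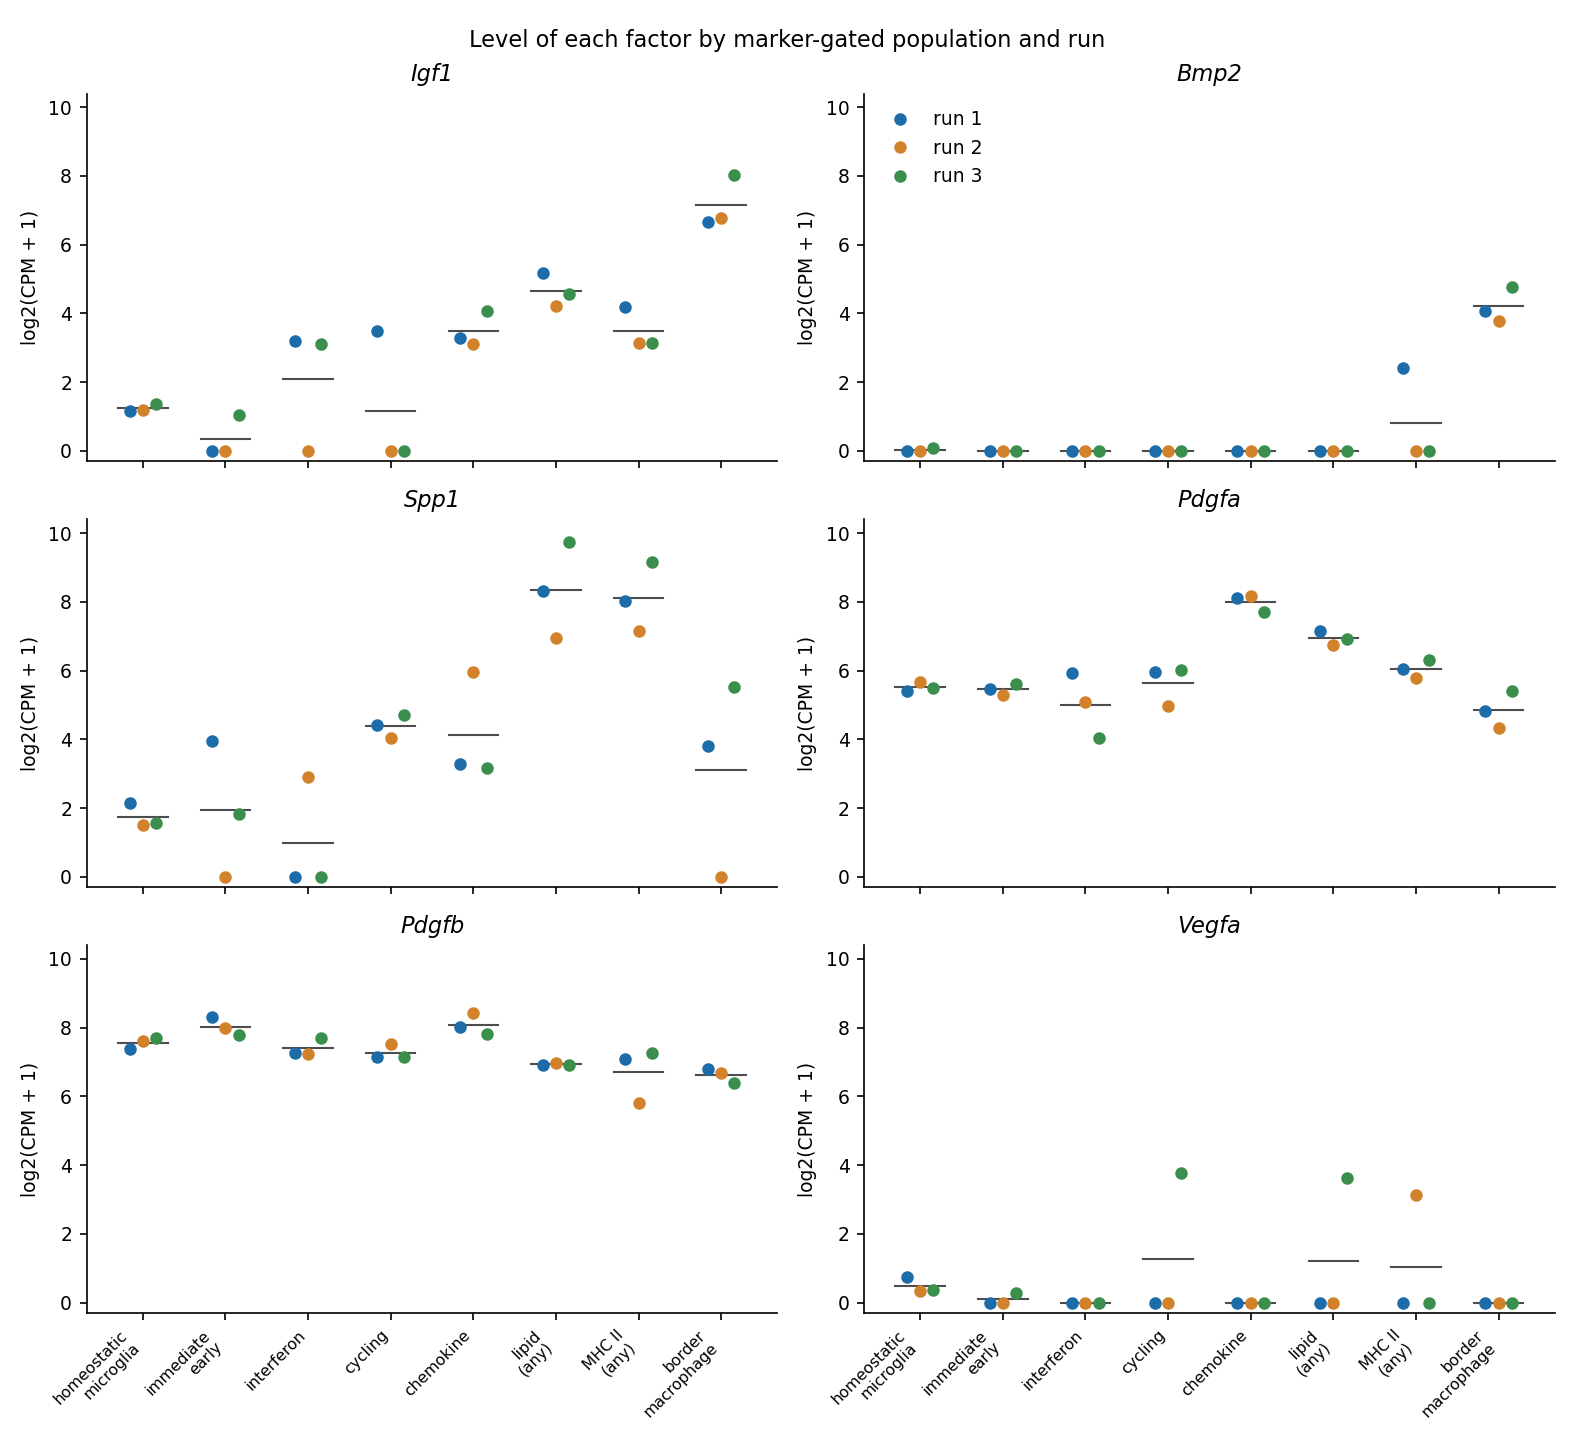
Level of 6 factors as log2(CPM + 1) in 8 marker-gated populations, 1 point per run and a line at the mean of the 3 runs. The lipid and MHC II columns hold every cell of the gate outside the class gates and share 10 cells. Igf1 and Bmp2 were highest in border-associated macrophages, Spp1 in the lipid-associated and MHC class II cells and Pdgfa in the chemokine state, while Pdgfb lay between 54.6 and 342 CPM in all of these populations and runs.

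Igf1 RNA was concentrated in border-associated macrophages. Their level was 100.0, 109 and 258 CPM in runs 1, 2 and 3, against 1.24, 1.29 and 1.57 CPM in homeostatic microglia. The groups did not overlap, and the lowest border value lay far above the highest reference value. A UMI of Igf1 was found in 39 of 70, 13 of 35 and 34 of 54 border-associated macrophages, or 55.7%, 37.1% and 63.0% of them, at a median depth of 7507, 4230 and 4324 UMIs. In homeostatic microglia it was found in 0.580%, 0.435% and 0.594% of cells at 4385, 3423 and 3610 UMIs. Igf1 rose by 6.85 ± 0.30 (SE) on the log2 scale in border-associated macrophages, with an adjusted p of 9.71e-115 (edgeR, quasi-likelihood F test, Benjamini-Hochberg over all genes tested). In this comparison 4 of the 7 factors had counts high enough in homeostatic microglia themselves to be tested, of which Igf1 and Spp1 rose, Pdgfb fell and Pdgfa did not pass. Of the 11203 genes tested 12.6% passed, 7.61% higher and 5.02% lower. Border-associated macrophages of run 1 carried more signal of other cells. Xist and Y-linked transcripts met in 21 of these 70 cells, against 2.86% of them in run 2 and 5.56% in run 3. Their 9 homeostatic markers summed to 16049 CPM in run 1, against 7964 and 4416. Without the cells that combine both transcripts the Igf1 rise was 7.01 on the log2 scale, and after thinning to 2000 UMIs the level was 202, 143 and 391 CPM.

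Igf1 was also found in activated states, at lower levels than in border-associated macrophages. Lipid-associated cells had 35.3, 17.6 and 22.9 CPM from 18 UMIs in all. MHC class II cells had 17.3, 7.80 and 7.80 CPM from 7 UMIs, and the chemokine state 8.67, 7.60 and 16.0 CPM from 4 UMIs. Each run of these 3 populations lay above every run of homeostatic microglia, and the MHC class II and chemokine values overlapped one another. Cells of the Emp3 gate alone had 28.9, 0 and 0 CPM, all from 6 UMIs of run 1. Igf1 rose by 4.33 ± 0.74 in lipid-associated cells (adjusted p of 2.03e-07, edgeR), where 3 of the 4 factors tested rose and 1 fell, against 13.2% of 10994 genes called, 6.69% higher and 6.52% lower. The rise of 3.17 ± 1.04 in MHC class II cells passed (adjusted p of 0.0247, edgeR), where 2 of the 4 factors tested rose and none fell, against 10.9% of 11052 genes called, 6.45% higher and 4.46% lower. That call was lost whichever run was left out, with adjusted p-values of 0.498, 0.139 and 0.284 without runs 1, 2 and 3. The difference of 2.90 ± 1.35 in the chemokine state did not pass (adjusted p of 0.288, edgeR). Markers of border-associated macrophages summed to 19.3, 76.3 and 34.4 CPM in lipid-associated cells, with 2 of 7 detected and 5 at 0, and to 194, 905 and 503 CPM in MHC class II cells, with 5 of 7 detected. In border-associated macrophages themselves they summed to 4655, 6269 and 8989 CPM. The part of such cells in the Igf1 of MHC class II cells was not tested.

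The Igf1 gene lies on the plus strand of chromosome 10 at 87858265 to 87937042 (GRCm38, GENCODE M21) and is protein coding. It overlaps the antisense gene Igf1os, and whether counting used strand is not given in the sources used here. Because Igf1 set the border-associated macrophages apart, the 250 bases upstream of its RefSeq start (GRCm38.p6, chr10:87860861-87861110, plus strand) are shown, 5′ to 3′. They lie inside the GENCODE span of the gene given above, so this start is not its outermost one. Capitals mark a match to an AP-1-like pattern, TGANTCA, in which N is any base.

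Igf1 promoter: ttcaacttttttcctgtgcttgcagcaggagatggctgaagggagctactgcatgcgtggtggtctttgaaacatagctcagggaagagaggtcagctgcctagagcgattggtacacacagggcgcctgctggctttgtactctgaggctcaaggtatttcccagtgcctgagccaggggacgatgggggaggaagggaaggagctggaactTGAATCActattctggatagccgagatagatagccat

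The match, TGAATCA, lies 37 to 31 bases before the start. The looser pattern TGANTCA is held on either strand by 6.75% of the 32851 RefSeq promoter windows of the same length. A match is a description of the letters and not of a bound site.

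Bmp2 RNA was found almost only in the same cells. Border-associated macrophages had 11, 2 and 7 UMIs in runs 1, 2 and 3, or 15.7, 12.8 and 26.1 CPM. Homeostatic microglia had 0, 0 and 1 UMI among 6548, 6441 and 4714 cells. Over all runs this is 20 UMIs against 1, a ratio of the CPM values of 1273 with an exact 95% counting interval of 204 to 52770, which covers counting error only. Of the remaining UMIs, 1 lay in an MHC class II cell and 1 in a cell that passed more than 1 class gate. Bmp2 passed the filter on low counts only through its level in border-associated macrophages, so its call there (adjusted p of 1.13e-21, edgeR, higher in 3 of 3 runs) was fixed by its selection, and it entered no other comparison. A UMI of Bmp2 was found in 7 of 70, 2 of 35 and 7 of 54 of these macrophages.

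The cells with Bmp2 were largely cells with Igf1. Of the 19 Bmp2-positive cells, 16 also held Igf1. Within border-associated macrophages 15 of 16 Bmp2-positive cells held Igf1 (93.8%), whereas Igf1 was found in 49.7% of the others. By run, Igf1 was found in 8 of 9, 2 of 2 and 6 of 8 Bmp2-positive cells. The Bmp2-positive cells of run 1 had a median of 12753 UMIs, far deeper than the run, and those of runs 2 and 3 had 4563 and 4220. At 2000 UMIs only 7 Bmp2-positive cells were left, of which 0 of 1, 1 of 2 and 4 of 4 held Igf1. The gene lies on the plus strand of chromosome 2 at 133552159 to 133562885 and overlaps no other gene in the annotation.

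Spp1 RNA sat in very few cells. The 10 highest cells of a run held 79.8%, 60.0% and 79.3% of its Spp1 UMIs in runs 1, 2 and 3, and the highest single cell held 92, 12 and 113 UMIs. For Igf1 the 10 highest cells held 25.5%, 30.2% and 31.5%, for Pdgfa between 3.92% and 5.22% and for Pdgfb at most 1.6%. The plot of ranked cells shows this separation of the 4 factors in every run.

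**Figure D3:**
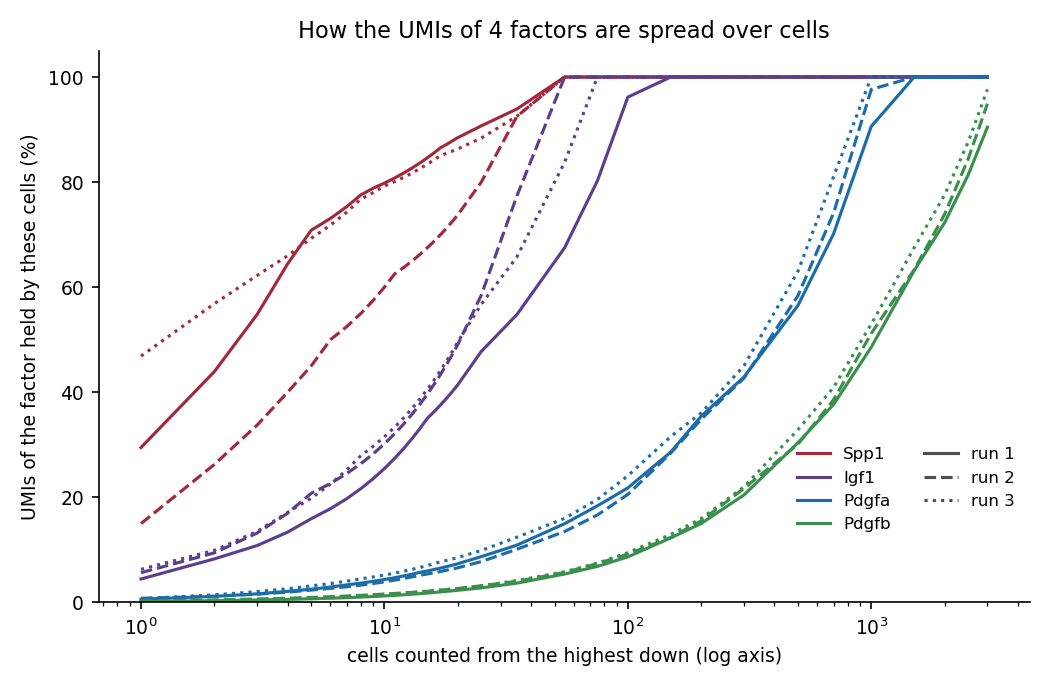
Share of all UMIs of Spp1, Igf1, Pdgfa and Pdgfb (%) held by the cells with the most UMIs, counted from the highest down (log axis), 1 line per run. The Spp1 lines start highest, with 1 cell holding between 15.0% and 46.9% of a run's UMIs, and those of Pdgfb, whose 10 highest cells hold at most 1.6% of the UMIs of a run, rise the slowest.

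Spp1 was highest in lipid-associated cells and in MHC class II cells that also passed other gates. Lipid-associated cells had 318, 123 and 859 CPM in runs 1, 2 and 3, against 3.44, 1.85 and 1.96 CPM in homeostatic microglia. MHC class II cells had 259, 140 and 565 CPM. No run of either overlapped the reference, although the lipid-associated values themselves spread from 123 to 859. Spp1 rose by 7.29 ± 0.22 in lipid-associated cells (adjusted p of 3.98e-237) and by 7.10 ± 0.24 in MHC class II cells (adjusted p of 1.72e-189), both by edgeR. These standard errors rest on a spread shared by all genes and are smaller than the spread of Spp1 between runs. A UMI was found in 5 of 36, 5 of 28 and 7 of 23 lipid-associated cells and in 5 of 37, 3 of 26 and 5 of 39 MHC class II cells, so most cells of both gates had none. The 10 cells that belong to both gates held 152 of the 270 Spp1 UMIs of the lipid-associated and of the 223 of the MHC class II cells, 137 of them in run 3. Cells that passed the MHC class II gate alone held 1 Spp1 UMI in 46 cells, or 10.1, 0 and 0 CPM, whereas cells that passed the lipid-associated gate alone had 406, 62.4 and 20.6 CPM. In homeostatic microglia the shares were 0.489%, 0.419% and 0.509%.

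A handful of cells carried much of that level. Cells with at least 10 Spp1 UMIs, a number chosen after the values were seen, were 5, 1 and 3 in runs 1, 2 and 3 and held 60.5% of all Spp1 UMIs (383 of 633). All 9 passed the count of homeostatic markers, 5 also passed the lipid-associated gate, 6 the MHC class II gate, 4 the Emp3 gate, 2 the chemokine gate and 1 the dendritic cell gate. Their median depth was 13644 UMIs. These 9 cells had 270 CPM of Tmem119 and 475 CPM of P2ry12, against 2272 and 4173 CPM in homeostatic microglia. They had 5940 CPM of Cd74 and 1358 CPM of Lpl, against 23.8 and 28.7. Monocyte markers summed to 499 CPM in them and border-associated macrophage markers to 0. Without these 9 cells Spp1 was at 24.2, 57.6 and 85.6 CPM in lipid-associated cells, 28.4, 52.7 and 34.2 CPM in MHC class II cells and 1.97, 1.85 and 1.96 CPM in homeostatic microglia, so the populations still did not overlap. These values describe the cells and carry no test, since the cells were chosen by Spp1.

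In other populations Spp1 rested on single runs or few UMIs. Cells of the Emp3 gate alone had 150, 0 and 0 CPM, all from 31 UMIs of run 1, and were not tested. The 8 cells of the dendritic cell gate held 13 Spp1 UMIs, all in run 3. The chemokine state had 8.67, 60.8 and 7.99 CPM from 1, 8 and 1 UMIs. Its rise of 3.45 ± 0.86 passed (adjusted p of 0.00335, edgeR) and did not pass without run 2 (adjusted p of 0.937). Border-associated macrophages had 12.9, 0 and 44.8 CPM, which overlapped homeostatic microglia. Their rise of 2.97 ± 0.60 passed (adjusted p of 1.67e-05, edgeR), but not without run 3 (adjusted p of 0.318) or at equal depth (adjusted p of 0.642). The cycling state had 20.3, 15.3 and 25.3 CPM from 7 UMIs, and its rise of 2.72 ± 0.90 (adjusted p of 0.0188, edgeR) was the only call among 4 factors tested there, where 15.7% of 11008 genes passed, 8.16% higher and 7.58% lower. It did not pass without run 1, 2 or 3, with adjusted p-values of 0.333, 0.0973 and 0.225.

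Spp1 lies on the plus strand of chromosome 5 at 104435118 to 104441050 and overlaps the gene Gm42793 on the same strand, so its counts are uncertain where reads of the pair could be split. The upstream window (GRCm38.p6, chr5:104434861-104435110, plus strand) is shown because Spp1 was the factor most unevenly spread over cells. Capitals mark TATAAA and the PU.1 core GAGGAAGT, PU.1 being a transcription factor of myeloid cells.

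Spp1 promoter: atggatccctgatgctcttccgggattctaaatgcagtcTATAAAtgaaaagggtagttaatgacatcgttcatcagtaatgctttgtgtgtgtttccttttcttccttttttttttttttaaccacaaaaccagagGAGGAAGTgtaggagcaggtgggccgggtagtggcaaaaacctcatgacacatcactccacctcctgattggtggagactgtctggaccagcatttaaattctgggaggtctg

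TATAAA lies 211 to 206 bases before the start and is held by 12.4% of all windows on either strand. GAGGAAGT lies 113 to 106 bases before it and is held by 2.44% of them.

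Pdgfa was highest in the chemokine state. Chemokine-state cells had 277, 289 and 208 CPM in runs 1, 2 and 3, against 41.6, 50.2 and 43.9 CPM in homeostatic microglia. A UMI was found in 10 of 20, 15 of 29 and 11 of 28 of them, and in 15.7%, 15.0% and 13.9% of homeostatic microglia. All 3 runs were higher and none overlapped. Pdgfa rose by 2.46 ± 0.22 (adjusted p of 1.79e-26, edgeR). Of the 4 factors tested there 2 rose and none fell, where 4.39% of 10873 genes passed, 2.18% higher and 2.21% lower. Lipid-associated cells came next, at 141, 106 and 120 CPM, with a rise of 1.56 ± 0.21 (adjusted p of 1.87e-11, edgeR). Their highest run lay below the lowest run of the chemokine state, but only the lipid-associated gate was read with other states allowed. With other states allowed in both gates the values, given below with Pdgfb for the chemokine gate, overlapped. MHC class II cells had 64.7, 54.6 and 78.0 CPM and narrowly missed the threshold (log2 difference of 0.76 ± 0.27, adjusted p of 0.05004, edgeR). From there down, neighbouring populations overlapped. The cycling state had a mean of 51.6 ± 18.2 CPM (SD, n = 3), homeostatic microglia 45.3 ± 4.47, the immediate early state 43.1 ± 5.24, the interferon state 35.8 ± 22.2 and border-associated macrophages 29.1 ± 11.1. Every run of border-associated macrophages lay below every run of homeostatic microglia, but the difference of -0.44 ± 0.31 did not pass (adjusted p of 0.442, edgeR). In the chemokine state the T or NK, monocyte and neutrophil markers were all at 0, and border markers summed to 0, 0 and 47.9 CPM. Endothelial markers, of a cell type known to make platelet-derived growth factors, summed to 17.3, 22.8 and 39.9 CPM there (2 of 7 detected), against 34.0, 33.9 and 32.3 CPM in homeostatic microglia.

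The gene lies on the minus strand of chromosome 5 at 138976014 to 138997370 and overlaps the antisense gene 6330403L08Rik. Its upstream window (GRCm38.p6, chr5:138994945-138995194, minus strand) is shown beside that of Spp1, since both factors were raised in lipid-associated cells but only Pdgfa was highest in the chemokine state. The window belongs to a RefSeq start inside the GENCODE span of the gene and not to its outermost start. Capitals mark the GC box GGGCGG, which is read here on the opposite strand.

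Pdgfa promoter: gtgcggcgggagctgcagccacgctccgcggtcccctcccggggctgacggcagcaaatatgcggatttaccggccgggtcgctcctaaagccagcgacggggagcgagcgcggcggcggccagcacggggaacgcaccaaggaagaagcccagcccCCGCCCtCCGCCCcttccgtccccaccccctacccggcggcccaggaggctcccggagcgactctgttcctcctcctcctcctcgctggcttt

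The GC boxes lie 93 to 88 and 86 to 81 bases before the start, and 32.7% of all windows hold at least 1 on either strand. Every window was also searched on both strands for the E-box CACGTG (6.02% of windows), for the cyclic AMP response element TGACGTCA (1.55%) and for the hypoxia core ACGTG (16.6%), whose letters lie within the E-box. In the Igf1, Spp1 and Pdgfa windows no letters beyond those in capitals matched, which says nothing about the factors that bind such motifs.

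Pdgfb was the most evenly spread factor. Homeostatic microglia had 165, 193 and 206 CPM, with a UMI in 50.4%, 48.4% and 50.3% of cells. Interferon-state cells had 154, 150 and 207 CPM and cycling cells 142, 184 and 139 CPM, which overlapped the reference, and neither passed (edgeR, adjusted p of 0.912 for the interferon state, log2 difference of -0.48 ± 0.21 for the cycling state). The lowest levels were in border-associated macrophages and in cells of the MHC class II and lipid-associated gates. Border-associated macrophages had 110, 102 and 82.1 CPM, and Pdgfb fell by 0.76 ± 0.22 on the log2 scale (adjusted p of 0.00733, edgeR). That call was lost by DESeq2 (adjusted p of 0.0824) and without run 2 (0.0894) or run 3 (0.265). Lipid-associated cells had 119, 123 and 120 CPM, and Pdgfb fell by 0.54 ± 0.19 (adjusted p of 0.0334, edgeR), a call that was lost without run 1, 2 or 3 (adjusted p-values of 0.101, 0.187 and 0.0944). MHC class II cells had 134, 54.6 and 152 CPM with a log2 difference of -0.48 ± 0.20 that did not pass (adjusted p of 0.118, edgeR), though it did at equal depth (adjusted p of 0.0258). In each of these 3 populations every run lay below every run of homeostatic microglia.

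The highest Pdgfb levels were in cells with chemokine and immediate early transcripts. The chemokine state had 260, 342 and 224 CPM, above all runs of the reference, with a difference of 0.50 ± 0.17 that did not pass (adjusted p of 0.0720, edgeR). It passed with DESeq2's size factors (adjusted p of 0.0206) and without run 3 (0.0300). The immediate early state had 318, 255 and 218 CPM, also above the reference in every run, but the difference of 0.23 ± 0.13 did not pass (adjusted p of 1.000, edgeR). None of the 4 factors tested passed in that state, by DESeq2 or at an unadjusted p under 0.05 either, where 0.878% of 11168 genes passed, 0.806% higher and 0.0716% lower. Run 3 held 1073 of the 1107 cells of this state, and run 1 and 2 rested on 13 and 21 cells. Every cell of the chemokine gate outside the class gates, read with other states allowed, had 362, 451 and 332 CPM of Pdgfb and 227, 184 and 121 CPM of Pdgfa. Cells that passed both the chemokine and the immediate early gate and no other held 50, 62 and 89 UMIs of Pdgfb in 11, 15 and 44 cells, with 14, 5 and 18 UMIs of Pdgfa. These last values were chosen after they were seen and are a description. Pdgfb lies on the minus strand of chromosome 15 at 79995874 to 80014977 and holds the microRNA gene Mir7213 on the same strand, with Gm41361 on the opposite strand.

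Vegfa and Bdnf were close to the limit of detection. Vegfa had 24, 7 and 9 UMIs in runs 1, 2 and 3, of which 21, 6 and 5 lay in homeostatic microglia, or 0.688, 0.259 and 0.280 CPM. No UMI was found in border-associated macrophages or in the chemokine and interferon states, where a count of 0 allows up to 4.28 CPM in border-associated macrophages of run 1 and up to 26.0 CPM in the chemokine state of run 1. Lipid-associated cells held 2 UMIs of Vegfa, both in 1 cell of run 3. Bdnf had 4, 0 and 1 UMIs, all in homeostatic microglia. Neither had counts high enough to be tested in any comparison, and differences between populations were not detectable at this depth. Vegfa lies on the minus strand of chromosome 17 at 46016993 to 46032369, and Bdnf on the plus strand of chromosome 2 at 109674700 to 109727007, where it overlaps the antisense gene Gm45346.

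Levels were also read without gates, at equal depth, by the number of markers with a UMI per cell. These are the same cells and genes as above and no independent evidence. At 2000 UMIs, Igf1 was at 1.64, 1.52 and 1.56 CPM in cells with no border marker, at 0, 10.9 and 0 CPM in the 99, 46 and 67 cells with 1 marker, and at 217, 188 and 375 CPM in the 46, 16 and 40 cells with 4 or more. Spp1 was at 2.13, 1.20 and 1.65 CPM in cells with no lipid-associated marker, 33.4, 15.6 and 8.24 CPM with 1 and 403, 88.2 and 320 CPM with 2. The 3 runs moved the same way over these steps for Spp1, but with 3 markers only 6, 6 and 7 cells were left. Pdgfa was at 39.6, 48.1 and 45.2 CPM in cells with no chemokine marker, 59.0, 52.7 and 40.0 CPM with 1 and 192, 139 and 73.6 CPM with 2. With 3 chemokine markers it was at 500, 275 and 130 CPM in 10, 20 and 23 cells, but with 4 or more it was at 71.4, 0 and 62.5 CPM in 7, 12 and 8 cells. Pdgfb over the same chemokine markers was at 169, 194 and 202 CPM with none and 337, 189 and 261 CPM with 2. With 3 it was at 300, 725 and 304 CPM and with 4 or more at 786, 583 and 375 CPM, above the cells with none in every run but from the same few cells. Over the immediate early markers Pdgfb was at 166, 180 and 161 CPM with none and 208, 241 and 219 CPM with 2.

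**Figure D4:**
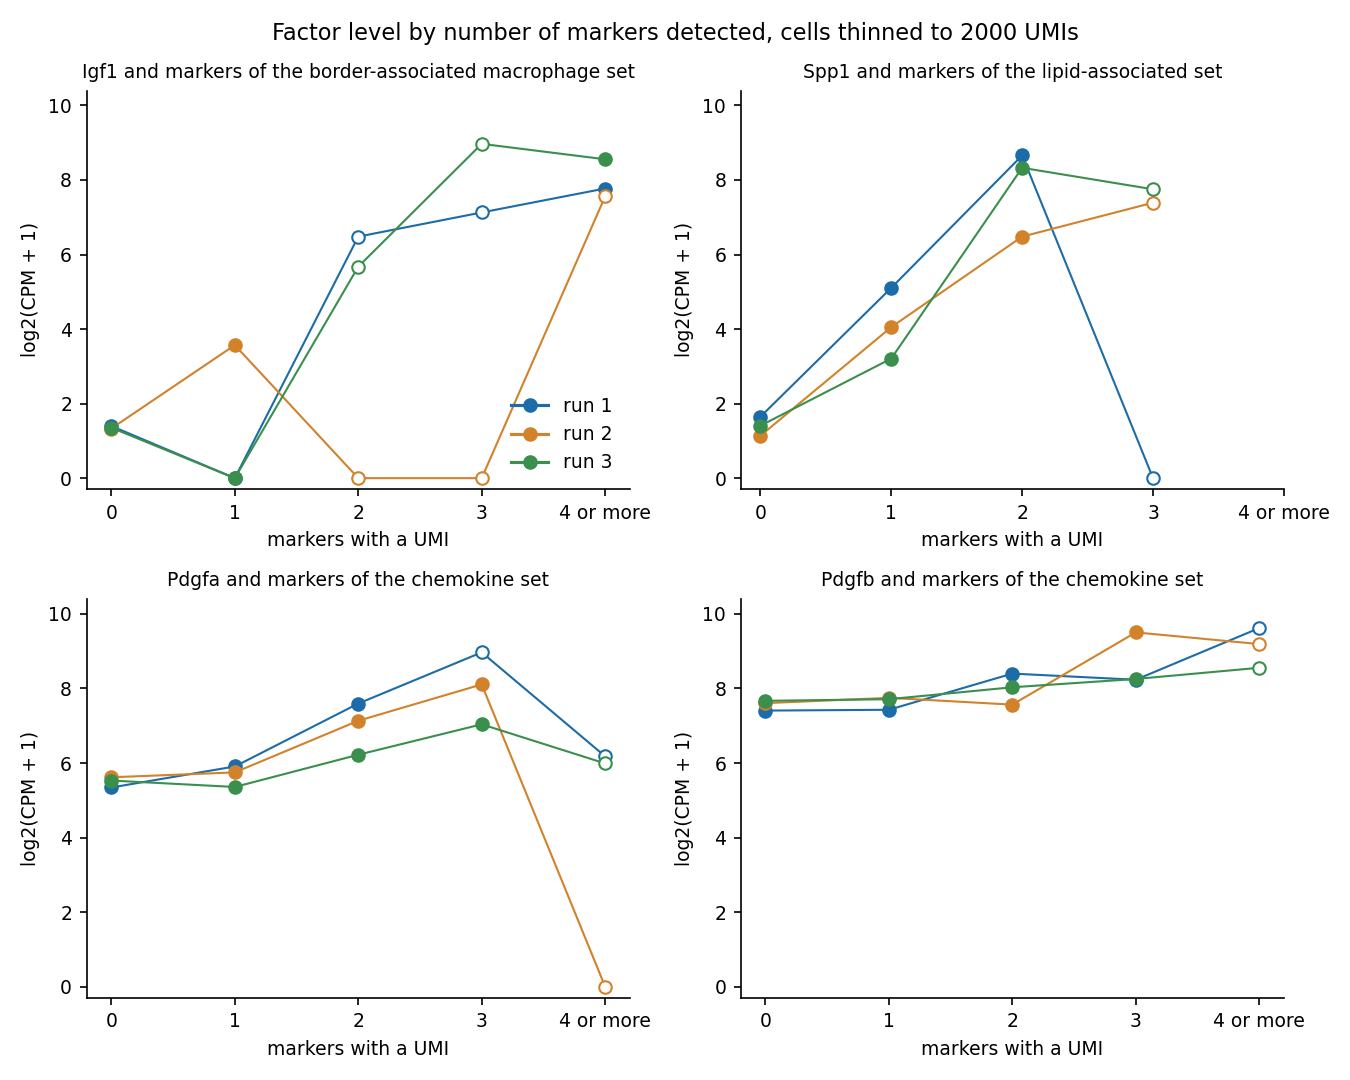
Level as log2(CPM + 1) by the number of markers with a UMI per cell, after thinning each cell to 2000 UMIs, 1 line per run. Open points rest on under 20 cells, and points on under 5 cells are left out. From 0 to 2 markers Spp1 went from between 1.20 and 2.13 CPM to between 88.2 and 403 CPM, and Pdgfa from between 39.6 and 48.1 CPM to between 73.6 and 192 CPM.

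Few cells held more than 1 of the rarer factors. Pdgfa was found in 18.1%, 15.7% and 15.5% of Pdgfb-positive cells and in 14.4%, 14.9% and 14.4% of Pdgfb-negative cells of runs 1, 2 and 3. At 2000 UMIs the shares were 7.87%, 9.02% and 7.18% against 7.65%, 8.97% and 8.57%, so the order held in 2 of 3 runs and reversed in run 3. Among Spp1-positive cells Pdgfa was found in 12 of 54, 13 of 41 and 21 of 53, or 22.2%, 31.7% and 39.6%, against 16.2%, 15.2% and 14.8% of Spp1-negative cells. At 2000 UMIs 3 of 30, 5 of 25 and 5 of 27 Spp1-positive cells held Pdgfa, against 7.70%, 8.94% and 8.08% of the others, a higher share in all 3 runs but from few cells. Within homeostatic microglia alone it was found at 2000 UMIs in 1 of 21, 2 of 19 and 1 of 15 Spp1-positive cells, against 7.61%, 8.86% and 8.26% of the others, a lower share in runs 1 and 3. Igf1 was found in 6 of 54, 4 of 41 and 1 of 53 Spp1-positive cells, against 1.44%, 0.644% and 1.20% of Spp1-negative cells. Cells are not replicates, and none of these shares was tested.

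Genes of the same pathways were read from lists of binding proteins, receptors and related ligands. In border-associated macrophages 1 of 4 tested genes of the insulin-like growth factor list rose and none fell, with a list median of 0.07 on the log2 scale against -0.10 over all genes. The gene that rose was Igfbp4, a binding protein of insulin-like growth factors, at 223, 493 and 355 CPM against 23.9, 40.2 and 30.1 CPM (log2 change of 3.60 ± 0.20, adjusted p of 7.95e-68, edgeR). Nrp1, a co-receptor of vascular growth factors, rose by 1.58 ± 0.20, and Hif1a, a subunit of a hypoxia-responsive transcription factor, fell by 0.82 ± 0.27, out of 5 genes tested of the vascular growth factor list. Of 7 osteopontin receptors tested, Itga4 was at 44.3, 32.0 and 59.7 CPM against between 0.280 and 1.02 CPM. It passed the filter on low counts only through border-associated macrophages, so its call was fixed by its selection. Itgb3, Itgb5 and 1 further gene of the list fell, with Itgb3 falling by 1.46 ± 0.47 and Itgb5 by 0.94 ± 0.21. Among 10 other secreted factors tested, Gas6, a ligand of the TAM receptors, rose by 1.91 ± 0.20 and Csf1, a growth factor of macrophages, by 1.69 ± 0.40, and none fell. Csf1 there came from 1 run, at 4.28, 6.40 and 116 CPM against between 10.0 and 11.6 CPM. Plau, a plasminogen activator, rose by 0.96 ± 0.35 in the list of platelet-derived growth factor genes (1 of 3 tested). Sort1, a receptor of neurotrophin precursors, fell by 0.86 ± 0.25 as the only neurotrophin gene tested, and Bmp2k fell by 0.86 ± 0.22 as the only call among 9 bone morphogenetic protein genes.

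Csf1 and Id2 passed as higher both in the chemokine state and in lipid-associated cells, which were set against the same homeostatic microglia. In the chemokine state Csf1 was at 199, 266 and 184 CPM against 10.0, 11.6 and 10.8 CPM in homeostatic microglia (log2 change of 4.27 ± 0.29, adjusted p of 1.12e-44, edgeR), the only call among 10 other secreted factors tested. Id2, a target of bone morphogenetic protein signalling, rose by 3.16 ± 0.22, whereas Smad1, a transducer of that signal, fell by 2.27 ± 0.51 and Bmp2k fell by 0.58 ± 0.17, out of 9 tested. Hif1a rose by 1.87 ± 0.19 and Nrp2 by 1.25 ± 0.31, out of 5 tested, and Plau by 1.57 ± 0.45, out of 2. Plau came mainly from run 2, at 17.3, 114 and 24.0 CPM against 18.6, 18.3 and 14.9 CPM, and lay below the reference in run 1. None of the 4 insulin-like growth factor genes and none of the 6 osteopontin receptors tested passed. In lipid-associated cells Csf1 was at 103, 70.4 and 74.5 CPM (log2 change of 3.05 ± 0.33, adjusted p of 8.47e-18, edgeR). Hgf, hepatocyte growth factor, rose by 3.39 ± 0.73 and Grn, progranulin, by 0.71 ± 0.14, and these 3 were the calls among 11 other secreted factors. Id2 rose by 2.18 ± 0.22, Bmpr2 fell by 0.95 ± 0.27 and Bmp2k fell by 0.62 ± 0.17. Hif1a, Nrp2 and Vegfb rose by 1.23 ± 0.18, 1.13 ± 0.25 and 0.81 ± 0.22, out of 5 genes of the vascular list. The osteopontin receptor Itga5 rose by 1.92 ± 0.51 with 1 further gene, while Itga9 and Itgav fell by 0.92 ± 0.32 and 0.78 ± 0.23, out of 7. Igf1r, the receptor of insulin-like growth factor I, fell by 1.06 ± 0.38 as the only call among 4.

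In MHC class II cells the osteopontin receptors Itga4 and Cd44 were found at higher levels. Itga4 was at 8.63, 54.6 and 74.1 CPM against between 0.280 and 1.02 CPM, and Cd44, a receptor of osteopontin, at 12.9, 31.2 and 46.8 CPM against between 0.336 and 0.431 CPM. Both passed the filter only through the MHC class II cells, so their calls were fixed by their selection. Of the 8 receptors tested, Itgav fell by 0.67 ± 0.24. Markers of other myeloid cells were raised in this population, with monocyte markers at 125, 211 and 405 CPM (3 of 7 detected) and dendritic cell markers at 104, 7.80 and 472 CPM (6 of 6 detected). Homeostatic microglia had between 3.58 and 5.10 CPM and between 2.15 and 2.86 CPM of these sets. The part of such cells in the levels of Spp1, Itga4 and Cd44 was not tested. Vegfb fell by 1.09 ± 0.35 and Nrp1 rose by 0.56 ± 0.19, out of 5 vascular genes, Sort1 fell by 0.73 ± 0.25 as the only neurotrophin gene tested, Id2 rose by 1.47 ± 0.28 with Bmp2k falling by 0.61 ± 0.18, out of 9, and Csf1 rose by 1.81 ± 0.48, the only one of 10. Csf1 again came from 1 run, at 86.3, 7.80 and 7.80 CPM.

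The remaining states showed little. In interferon-state cells none of the 4 factors tested passed, at an unadjusted p under 0.05 or by DESeq2 either, with a lowest adjusted p of 0.688 in edgeR, and 1.63% of 10963 genes passed, 1.48% higher and 0.155% lower. Csf1 was the only gene of the lists to pass, with a rise of 1.71 ± 0.41. In the immediate early state Id2 was the only gene of the lists to pass, at 28.9, 47.2 and 82.0 CPM against 35.3, 26.6 and 33.7 CPM (log2 change of 1.24 ± 0.13), and its run 1 lay within the range of the reference. In cycling cells Cd44 had 1, 5 and 1 UMIs, or 5.06, 76.6 and 12.7 CPM against between 0.336 and 0.431 CPM, and passed the filter only through those cells. There Itga9, Itgb5, Bmpr2, Bmp2k, Gas6 and Tgfb1 fell by 1.19, 0.63, 1.04, 0.53, 0.73 and 0.47. Gas6 was at 81.0, 122.5 and 164 CPM against 157, 171 and 152 CPM, so it lay above the reference in run 3. Tgfb1 was at 430, 383 and 367 CPM against 446, 691 and 379 CPM, and differed mainly in run 2.

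Homeostatic microglia were also divided by sex-linked transcripts, 2236, 1287 and 1259 cells with Y-linked UMIs and 2563, 3400 and 2006 with Xist UMIs, a comparison added after the data were seen. The rules were unlike. Y-linked cells held at least 1 UMI of 4 Y-linked genes and no Xist UMI, and Xist cells at least 2 Xist UMIs and no Y-linked UMI. Pdgfb was at 163, 185 and 194 CPM against 160, 196 and 213 CPM, and Pdgfa at 43.6, 45.2 and 43.2 CPM against 41.1, 53.6 and 41.7 CPM. The log2 differences were -0.06 ± 0.05 for Pdgfb, -0.03 ± 0.07 for Pdgfa, -0.09 ± 0.35 for Spp1 and 0.33 ± 0.39 for Igf1. None passed in edgeR (lowest adjusted p of 0.756), by DESeq2 or at an unadjusted p under 0.05, where 0.576% of 11107 genes passed, 0.306% higher and 0.270% lower. DESeq2 gave no adjusted p for 3 of the 4.

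Genes whose level followed that of a factor over 7 populations in 3 runs, 21 sums in all, were named by the highest Pearson correlation of log2(CPM + 1) values. The populations were homeostatic microglia, border-associated macrophages and the chemokine, interferon, cycling, immediate early and Emp3 states. Cells of the lipid-associated and MHC class II gates outside the class gates, where Spp1 was highest, did not enter. Each of these gates alone had under 10 cells in run 3. The sums of a run share a library, the small populations share low depth, and the correlations carry no test. For Igf1 they were F630028O10Rik, Sem1 and Ms4a6c, at 0.84, 0.83 and 0.83. For Pdgfa they were Cln8, Actr1b and Hif1a, at 0.82, 0.80 and 0.79, and for Pdgfb Saraf, Evi2a and Camk1, at 0.85, 0.81 and 0.80. For Spp1 they were Cdk11b, Bcl2 and Telo2, at 0.70, 0.67 and 0.66, and for Vegfa Ubap2, Tardbp and Thrap3, at 0.63, 0.63 and 0.62.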

How the data were processed

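Single-cell RNA was read in 3 runs of tdTomato+ hippocampal cells. The deposited tables hold raw UMI counts per gene and barcode, made with Cell Ranger on mm10 per the submitters' processing notes, which also name Seurat 4.0. Per the file headers the counting software was version 3.0.2 for run 1 and 3.1.0 for runs 2 and 3. How barcodes were selected is not given in the sources used here, and 7255, 6895 and 6226 barcodes were listed. The kept cells held 33547705, 24534691 and 24073809 UMIs. Of the gene IDs, 30934 of 31053 were found in GENCODE M21.

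For each run, the counts of every population were added up, and edgeR 4.0.16 in R 4.3.3 (TMM, filterByExpr, glmQLFit and glmQLFTest) compared the sums. The run number entered as a block, and the adjusted p threshold was 0.05. Gate markers were not tested, nor were populations under 10 cells in any run, so the lipid-associated state was not set against the chemokine state. Errors of log2 changes were computed from the F statistic. Both populations of a run were read from 1 library. The correlation of their departures from the means over runs was 0.105 to 0.243, or 0.591 to 0.727 for the sex-linked comparison. The prior degrees of freedom were infinite except in the latter, so the other comparisons used a spread shared by all genes. DESeq2 1.42.0, no filter, no block, another reference, a single fit, stricter cells, 1 more marker, thinning and leaving out runs were alternatives. In simulated border-associated macrophage counts 49.5% of 2-fold and 97.5% of 4-fold changes were recovered, and in those of the chemokine state 32% and 85.5%. The changed genes were drawn from those at 20 CPM or more in homeostatic microglia, and no difference between runs was simulated. Igf1, Spp1, Vegfa, Bdnf and Bmp2 lay below that level, so these shares do not apply to them. The members and lists were chosen with earlier results of these data known. The text names all members, up to 3 genes per list with the largest called change and 20 CPM or more, and the 3 genes most like each member. Clec7a, a lipid-associated marker, was not used here. Python 3.11.15, numpy 2.4.6, scipy 1.17.1, pandas 2.3.3 and matplotlib 3.10.9 were used.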

Additional observations from a re-analysis of the deposited data

How the results depend on the processing

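The calls on Igf1 in border-associated macrophages, on Pdgfa in the chemokine state and on Spp1 in lipid-associated and MHC class II cells kept their direction and stayed past the threshold under every alternative that gave a value. Over all members 336 log2 changes kept their state, called or not called. These include the members that passed neither in the main fit nor in the alternative, also where their sign changed, so they are not a count of stable calls. Of the rest, 24 lost a call, 5 gained one and 1 reversed. The reversal was Spp1 in the immediate early state, which stood at 0.48 and at -1.94 (adjusted p of 0.000161, edgeR) with all other cells outside the class gates as the reference. The cause of these changes was not tested. Counts of UMIs limit Vegfa, Bdnf and Bmp2, and few cells per run limit every activated state.

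The number of genes called moved as well. By DESeq2 it was 918 for border-associated macrophages (1415 by edgeR), 192 for the chemokine state (477), 1057 for the cycling state (1732), 828 for lipid-associated cells (1453), 691 for MHC class II cells (1206), 6 for the immediate early state (98) and 11 for the sex-linked comparison (64). Without the replicate block it was 821 for border-associated macrophages, 104 for the chemokine state, 118 for the interferon state (179 with it), 703 for lipid-associated cells, 667 for MHC class II cells, 5 for the immediate early state and 0 for the sex-linked comparison, where 66 genes had an unadjusted p under 0.05. Without the block the fall of Pdgfb in lipid-associated cells no longer passed (adjusted p of 0.124, edgeR). After thinning to 2000 UMIs the counts were 854, 187, 100, 53 and 18 for border-associated macrophages, the chemokine, interferon and immediate early states and the sex-linked comparison. In a single fit of all populations they were 300, 97, 954 and 16 for the chemokine, interferon, cycling and immediate early states. The stricter cell filter gave 907 for lipid-associated cells, 1 more marker gave 1868 for MHC class II cells and no filter on low counts gave 101 for the sex-linked comparison. Leaving out 1 run gave 567 to 1569 for border-associated macrophages, 198 to 298 for the chemokine state, 118 to 172 for the interferon state, 977 to 1404 for the cycling state, 915 to 1112 for lipid-associated cells, 498 to 1130 for MHC class II cells, 6 to 102 for the immediate early state and 34 to 111 for the sex-linked comparison. DESeq2's size factors in edgeR gave 310 higher and 176 lower genes in the chemokine state, against 237 and 240, and 792 and 360 in MHC class II cells, against 713 and 493.

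Thinning also lowered the mean share of cells with a UMI, to 0.572% for Igf1, 8.27% for Pdgfa, 30.6% for Pdgfb, 0.0552% for Vegfa, 0.429% for Spp1 and 0.0379% for Bmp2. The share of cells holding both of a pair fell to 0.125% for Igf1 and Pdgfb, 0.0278% for Igf1 and Bmp2, 2.45% for Pdgfa and Pdgfb, 0.0690% for Pdgfa and Spp1 and 0.104% for Pdgfb and Spp1.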
